A study of Gossypium hirsutum with 2 samples.

Results

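Ketoacyl-CoA synthases (KCS) were represented by 7 of the 24132 probe sets of the Affymetrix cotton array. They were chosen by name, as every probe set that the platform annotation assigns to a single cotton gene carrying an alias of KCS plus a number. Earlier results of these data were known when this choice was made. The 7 probe sets belong to 4 genes, out of 520 genes that are given alone to some probe set. KCS38 (LOC107925445) has 4 of them, and KCS45 (LOC107893385, also listed as FDH), KCS12 (LOC107928969, also listed as xl1) and KCS10 (LOC107945886) have 1 each. RefSeq's genes of Gossypium_hirsutum_v2.1 include 7 with such an alias. The platform annotation assigns no probe set to any of the other 3, KCS6, KCS48 and KCS2/KCS23, as its single gene.

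A ketoacyl-CoA synthase catalyses the condensing step of fatty acid elongation, in which a malonyl-CoA unit is added to an acyl-CoA in the endoplasmic reticulum. This step sets the chain length of the very-long-chain fatty acids that go into cuticular waxes, suberin, sphingolipids and some storage oils. In leaves, the epidermis uses them for the wax layer that limits water loss through the cuticle. FDH stands for FIDDLEHEAD, a KCS gene of Arabidopsis whose loss lets epidermal organs fuse. A cotton KCS number does not by itself name the Arabidopsis counterpart.

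The leaves came from field-grown Upland cotton (Gossypium hirsutum) of the cultivar Acala 1517-99, labelled drought tolerant. The well-watered group received furrow irrigation, and the drought group was left without it and sampled 9 days later. All plants shared the genotype and a labelled age of 9 weeks, and the third topmost leaf was taken from 8 plants per replicate in 3 field plots. Each group is 1 array of leaf RNA here, and whether the plots were pooled on it is not stated. There is therefore no replicate error and no p-value, and each difference below describes this pair of arrays.

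Signals are linear MAS5 intensities. Probe sets counted as measurable if their log2 signal, averaged over both arrays, reached the median of the 23977 plant probe sets, which is a signal of 72.3. Of the 7 KCS probe sets, 5 passed, namely all 4 of KCS38 and that of KCS45, and those of KCS10 and KCS12 did not. As a second guide to low signals, 51 probe sets for reporter and marker sequences (all but the brightest of them) had a 95th percentile of 75.7 under irrigation and 144 under drought. The ratio of 3-prime to 5-prime signal, which follows RNA quality, ranged from 1.30 to 14.1 over the control transcripts actin, ubq11 and ss1. It was higher on the well-watered array for actin (14.1 against 4.09) and ss1 (1.83 against 1.30). For ubq11 it was higher on the drought array (10.2 against 5.80). The part of RNA quality in the KCS differences was not tested. Leaf RNA was evident from the rubisco activase gene RCA1, which read 16617 under irrigation and 20148 under drought.

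All 4 KCS38 probe sets read above the measurable minimum in both leaf samples, and none differed by 2-fold between them. The brightest probe set, Ghi.9938.1.S1_x_at, read 574 under irrigation and 592 under drought, a log2 difference (drought minus well watered) of 0.04. Next came Ghi.9531.1.S1_s_at, with 398 and 374 (log2 difference -0.09). These 2 probe sets were brighter than 82.1 to 87.6% of plant probe sets, and each was nearly level between the samples. The suffixes s and x mark probe sets whose probes can also match other transcripts, so both may read close copies of KCS38 as well.

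The other KCS38 probe sets are not marked as shared between genes. GhiAffx.2173.2.S1_at, whose plain ending marks probes unique to its target on the array, read 240 under irrigation and 326 under drought, a ratio of 1.35 and a log2 difference of 0.44. This was the largest difference among the measurable KCS probe sets. Over the array, 27.1% of measurable probe sets differed by at least this much in either direction. GhiAffx.2173.1.A1_a_at, whose suffix stands for alternative transcripts of a gene, was dimmer, at 101 and 111 (log2 difference 0.14), and its drought signal lay under the 95th percentile of the reporters.

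**Figure D1:**
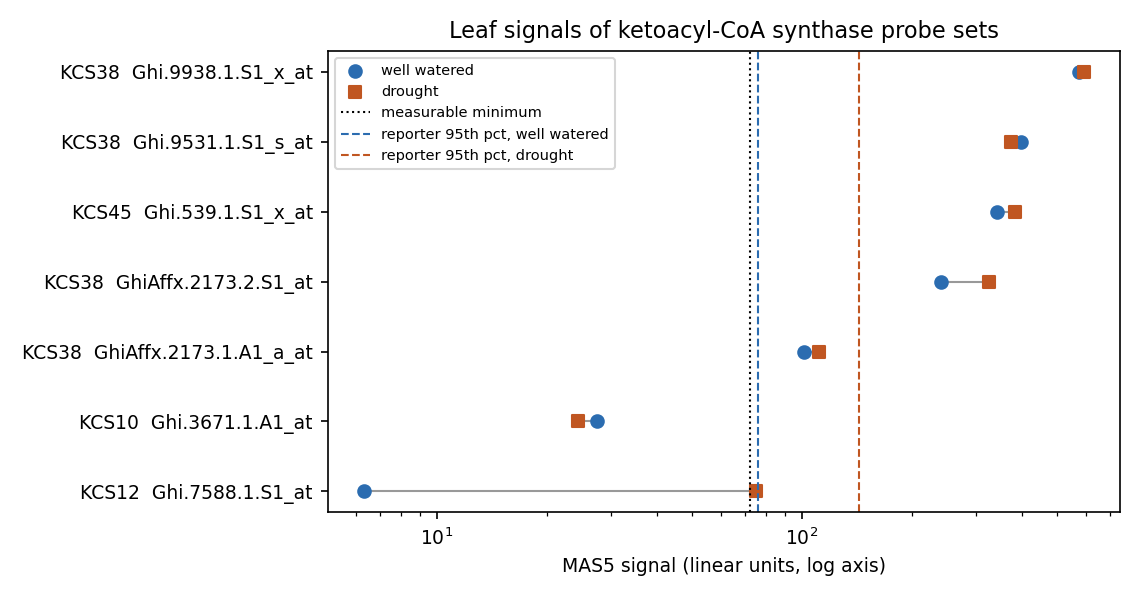
MAS5 signal (log axis) of each KCS probe set under irrigation (circles) and drought (squares), ordered by mean signal, with the measurable minimum of 72.3 and the 95th percentile of reporter probe sets on each array as vertical lines. KCS38 and KCS45 signals of the 2 samples lie close together between 101 and 592, while KCS10 and KCS12 lie at or below 75.

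The 4 KCS38 probe sets differed in brightness far more than the leaf samples did. Their signals spanned 5.67-fold under irrigation and 5.32-fold under drought, in the same order on both. Their log2 differences had a mean of 0.13 and an SD of 0.22 over probe sets, which share the same 2 samples and are not replicates. They ran from -0.09 to 0.44, a range of 0.53. Among the 13 genes with at least 3 measurable probe sets, the range had a median of 0.76 and lay between 0.26 and 1.56. For 8 of the 13 it was wider than for KCS38. Both signs occurred within 10 of the 13 genes, KCS38 included.

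Another probe set shares the transcript cluster of the last pair but has no gene assigned and was not counted among the 7. This probe set, GhiAffx.2173.2.A1_x_at, had signals of 61.3 and 48.3 (log2 difference -0.34), under the measurable minimum. Its ID differs from that of GhiAffx.2173.2.S1_at in the orientation letter, A against S, so the 2 may read opposite strands. The letter A also occurs in the IDs of GhiAffx.2173.1.A1_a_at of KCS38 and Ghi.3671.1.A1_at, the only KCS10 probe set. Which strand those read was not tested, and the same limit holds for their signals. In drought leaves GhiAffx.2173.2.S1_at was higher and GhiAffx.2173.2.A1_x_at lower. The signals of the latter also lay under the reporters' 95th percentile on both arrays, so its direction cannot be read.

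KCS45, the gene also listed as FDH, read 343 under irrigation and 385 under drought on its only probe set, Ghi.539.1.S1_x_at. The ratio was 1.12 and the log2 difference 0.17, within the range of the KCS38 probe sets. An absolute difference of this size or more was found in 64.5% of measurable probe sets. Its suffix is x as well.

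KCS10 and KCS12 lay under the 95th percentile of the reporters on both arrays. KCS10, on Ghi.3671.1.A1_at, had signals of 27.4 and 24.3 (log2 difference -0.17), about the level that 25.6% and 23.7% of plant probe sets fell below on the 2 arrays. KCS12, on Ghi.7588.1.S1_at, read 6.3 under irrigation and 75 under drought. Its log2 difference of 3.57 (11.9-fold) was the largest of the KCS probe sets, and adding a pseudocount of 26.2 to both signals brought it to 1.64. Differences of 2-fold were common among the 11988 plant probe sets below the measurable minimum: 23.2% were higher by 2-fold or more under drought and 21.1% were lower by as much. A difference at least as high as that of KCS12 was much rarer, on 140 of these 11988 with KCS12 included. Whether the KCS12 transcript differed between the leaves cannot be read from signals this low.

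**Figure D2:**
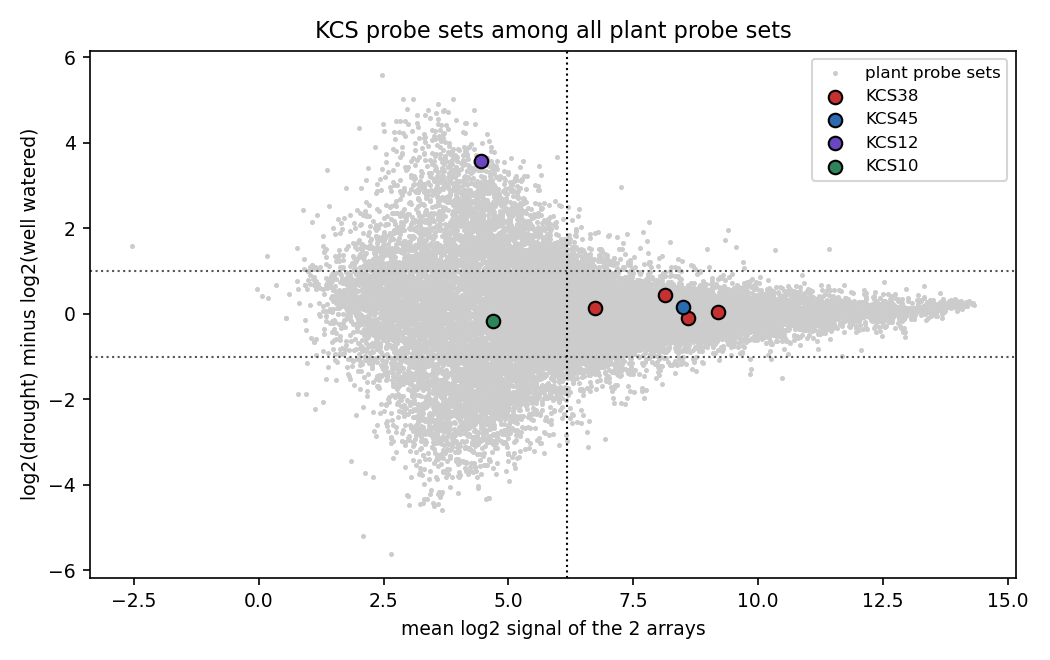
Log2 difference (drought minus well watered) against mean log2 signal for the 23977 plant probe sets (grey) and the 7 KCS probe sets (coloured by gene), with dotted lines at 2-fold and at the measurable minimum. The 5 measurable KCS points lie between -0.09 and 0.44, and KCS12 lies at 3.57 among the widely scattered dim probe sets left of the minimum.

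In the order of leaf signals, with each gene taken at its brightest probe set and both arrays averaged on the log2 scale, KCS38 came before KCS45, KCS10 and KCS12, with mean signals of 583, 363, 25.8 and 21.7. A signal depends on the probes as well as on the transcript, so this is an order of signals and not of transcript numbers. KCS38 and KCS45 were not separated beyond the spread of probe sets, and KCS10 and KCS12 had no stable order. The KCS45 signal fell inside the span of the 4 KCS38 probe sets on each array, and with KCS38 taken as the mean of its probe sets (286) KCS45 came ahead. KCS10 and KCS12 changed places between the arrays, with KCS10 above under irrigation (27.4 against 6.3) and KCS12 above under drought (75 against 24.3). The gap between KCS38 or KCS45 and the dim pair held on both arrays: 101, the lowest signal among the measurable KCS probe sets, was above 75, the highest of KCS10 and KCS12. At the dimmest KCS38 probe set the gap was narrow on the drought array, 111 against 75. Both signals lay under the reporters' 95th percentile of 144 there. That gap was smaller than the 5.32-fold span of the KCS38 probe sets on the same array.

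The comparison between the leaves asks whether transcripts for very-long-chain fatty acid elongation differ in level when irrigation is withheld. Of the 5 measurable KCS probe sets, 4 were higher and 1 was lower in drought leaves, against 49.6% higher among all 11989 measurable plant probe sets. Their median log2 difference was 0.14, beside -0.01 over all measurable probe sets. None reached 2-fold (0 of 5), a size that 4.38% of measurable probe sets reached, 1.82% as higher and 2.56% as lower (218 and 307 probe sets). Of the 5 KCS probe sets, 4 belong to KCS38 and 1 to KCS45, so these counts and the median rest on 2 genes. In bulk leaf RNA, a different share of epidermal cells and a different amount of RNA per cell cannot be told apart.

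These directions hang on the scaling of the arrays. Centring on the median of plant probe sets put Ghi.9938.1.S1_x_at of KCS38 just below 0, which left 3 of the 5 higher. Another scale was the median of 27 hybridisation spike-in probe sets. These read only the spiked bioB, bioC, bioD and cre transcripts, so they are not 27 independent controls. Set against that median, every log2 difference is lower by 0.25, and the median of all measurable probe sets becomes -0.25. On that scale 1 of the 5 KCS probe sets was higher and 4 were lower, against 24.2% higher over the array, and the KCS median was -0.11. The remaining higher one was GhiAffx.2173.2.S1_at of KCS38, at 0.19. The values for the other KCS38 probe sets were -0.20 (Ghi.9938.1.S1_x_at), -0.34 (Ghi.9531.1.S1_s_at) and -0.11 (GhiAffx.2173.1.A1_a_at), and that for KCS45 was -0.08. The split of 2-fold differences over the array became 102 higher and 628 lower. Relative to the median of all measurable probe sets, the KCS median was higher by the same amount on both scales, since a single factor moves all probe sets alike.

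**Figure D3:**
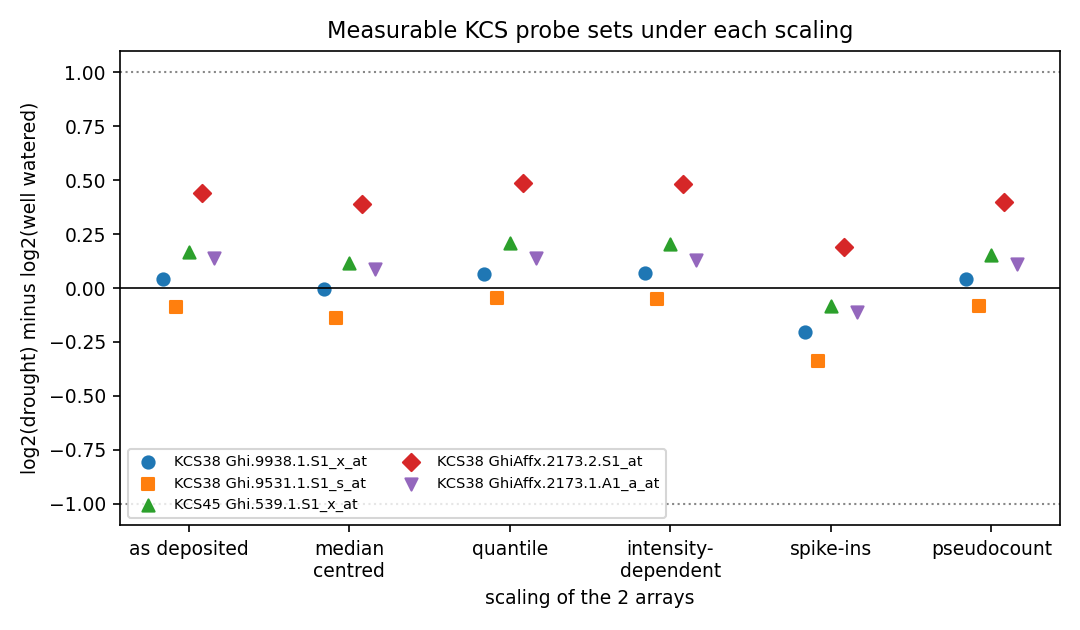
Log2 difference (drought minus well watered) of the 5 measurable KCS probe sets under 6 treatments of the signals, with 0 as a solid line and 2-fold as dotted lines. GhiAffx.2173.2.S1_at of KCS38 lies above 0 and Ghi.9531.1.S1_s_at below 0 in each, and the other 3 turn negative against the spike-ins (-0.20, -0.11 and -0.08), Ghi.9938.1.S1_x_at also after centring on the median.

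The authors' deposited list of 110 probe sets that differ between the samples holds 0 of the 7 KCS probe sets, KCS12 included. The list names 110 of the 24132 probe sets of the array. With so small a share, 0 among 7 says little about KCS genes. How that list was chosen is not stated.

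Other genes of fatty acid and surface lipid synthesis were looked up by 42 alias stems, which matched 8 probe sets of 5 genes. No probe set matched the stems for the reductases and the dehydratase of the elongation cycle (KCR, ECR, HCD) or for wax synthesis (CER, WSD, MAH). Since the lookup used short aliases and 697 probe sets with a single gene, an unmatched stem says nothing of the transcript. Of the 8, 7 were measurable, 5 higher and 2 lower in drought leaves, with a median log2 difference of 0.12, beside 49.6% higher and a median of -0.01 over all measurable probe sets. At 2-fold there were 0 of the 7, against 4.38% over the array. Against the spike-ins 0 of the 7 were higher and the median was -0.13, beside 24.2% higher and a median of -0.25 over the array.

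The plastid steps that supply elongation with its acyl chains were among these. KAS2-1, also listed as KASII, the plastid ketoacyl-ACP synthase that elongates palmitoyl-ACP to stearoyl-ACP, had signals of 989 and 1071 (log2 difference 0.12). The stearoyl-ACP desaturase gene sad1 had 125 and 142 (0.18). The desaturase gene listed as FAD78-1A had 87.6 and 76.5 (-0.20), close to the measurable minimum. The lipid transfer protein gene listed as LTP3, among other aliases, had 7562 and 8264 on its brighter probe set (0.13). The remaining gene, the acyl-ACP thioesterase FatB1, differed by 0.23 at its dimmer and by -0.01 at its brighter probe set. All 7 measurable probe sets of these lay between -0.20 and 0.23, inside or near the range of the KCS38 probe sets. Against the spike-ins the values of KAS2-1, sad1 and LTP3 were negative, at -0.13, -0.07 and -0.12.

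**Figure D4:**
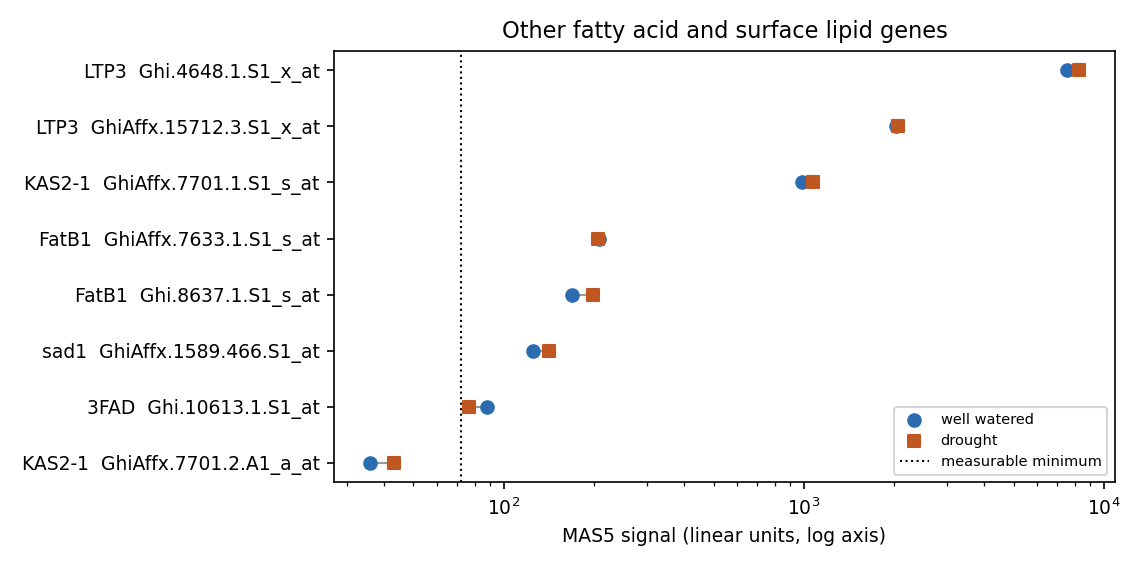
MAS5 signal (log axis) of the 8 probe sets of other fatty acid and surface lipid genes on the well-watered (circles) and drought (squares) arrays, with the measurable minimum of 72.3 as a dotted line. Signals of the same probe set in the 2 samples lie close together, from 35.8 and 43.2 for the dimmer probe set of KAS2-1 to 7562 and 8264 for LTP3.

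Signals most like those of the brightest KCS38 probe set were sought among 170 measurable named genes, by the distance between log2 signals over the 2 arrays. The nearest were the alpha-tubulin gene TubA4 (570 and 671, distance 0.18), paC1 (510 and 563, 0.19), the UDP-glucose dehydrogenase gene UGD2 (567 and 674, 0.19) and DET3, a subunit of the vacuolar proton pump (526 and 515, 0.24). With a pair of arrays this is a likeness of level more than of pattern.

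Cotton leaves bear trichomes, and very-long-chain fatty acids are known to matter in the related seed fibre. Among markers of fibre or trichome, apart from the lipid transfer protein gene, 6 of 7 probe sets were measurable, 2 higher and 4 lower in drought leaves, against 49.6% higher over all measurable probe sets. The summed signal of all 7 was 1385 under irrigation and 1264 under drought, and 0 markers were listed at a signal of 0. The lipid transfer protein gene is on the same list. Its 2 probe sets, both with the suffix x, were higher in drought leaves on the deposited scale (0.13 and 0.03). Against the spike-ins both were lower (-0.12 and -0.22). With these 2 probe sets counted, 8 of 9 were measurable. The sum of the deposited signals then went the other way, from 10977 under irrigation to 11593 under drought. The direction of this marker list thus depends on which genes are counted. The fall without the lipid transfer protein gene rests in turn on the fibre gene E6, which had 216 and 92.3. The trichome regulator GHTTG1 had 341 and 447. The 2 probe sets of CesA1 on the list went opposite ways, by -0.38 at the brighter and 0.76 at the dimmer. The leaf markers RCA1, CBP2 and CBP3 summed to 43963 and 52151, with all 3 measurable and higher on the deposited scale. Against the spike-ins, CBP3 was lower while RCA1 and CBP2 stayed slightly above 0. The xylem list had 1 match, CCR1, at 172 and 115, and the guard cell and phloem lists had 0. The part of such cell types in the KCS values was not tested.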

How the data were processed

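RNA of well-watered and drought-stressed leaves was hybridised to Affymetrix cotton arrays, from 5.0 µg total RNA per the labels' protocols. The deposited intensity values are MAS5 signals; per the submitters' processing notes, GCOS and MAS5 were used. Software versions and the array scaling target were not given in the sources used here. Another deposited list gives signals and detection p-values for 110 probe sets, per the file headers; only its membership was used.

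Samples were grouped by their labelled condition, with 1 array each and no test. Log2 differences used the signals as deposited without pseudocount, and 155 control probe sets were left out. Gene identifiers of the platform annotation were looked up in RefSeq's table of Gossypium_hirsutum_v2.1 (697 probe sets with 1 gene, all matched; 46 with several were not named); its coordinates were not used. Precision is limited by the number of arrays. The members and lists were chosen with earlier results of these data known. Named genes were all KCS probe sets, the 4 list genes with the largest differences at their brightest measurable probe set, and the 4 genes nearest to KCS38; FatB1 and the unassigned probe set were named after their values were seen. Alternatives were other scalings (median, quantile, lowess with a span of 0.3, spike-ins), a pseudocount (the 25th percentile of all signals), other filters and probe set choices, and thresholds of 1.5-fold and 3-fold. The counting at 2-fold was tested on simulated data. Python 3.11.15, numpy 2.4.6, pandas 2.3.3 and statsmodels 0.14.6 were used.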

Additional observations from a re-analysis of the deposited data

How the results depend on the processing

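No paired analysis was possible because each group is 1 array. A value was taken as unmoved when it shifted by less than the SD of 0.22 over the KCS38 probe sets, and a count when it stayed within 1.5 times. Scaling to the spike-ins turned the KCS median to -0.11 and the lipid list's median to -0.13, left 1 KCS and 0 list probe sets higher, and gave 102 higher and 628 lower at 2-fold over the array. It turned Ghi.9938.1.S1_x_at (-0.20) and GhiAffx.2173.1.A1_a_at (-0.11) of KCS38 and Ghi.539.1.S1_x_at of KCS45 (-0.081). Centring on the median turned Ghi.9938.1.S1_x_at to -0.0066 and left 3 of 5 KCS probe sets higher. The count of KCS probe sets higher was 2 of 3 without probe sets ending in _x_at, 2 of 2 without those ending in _s_at or _x_at, and 2 of 2 with 1 probe set per gene. For the lipid list these choices gave 3 of 5, 1 of 2 (median -0.0083) and 3 of 5, and the filter at the 75th percentile gave 3 of 3. With KCS38 as the mean of its probe sets, its lead of 0.68 over KCS45 became -0.35. KCS12 minus KCS10 was -0.25 on average, -2.12 on the well-watered and 1.63 on the drought array. Without _s_at and _x_at, KCS45 had no probe set and no order with KCS38. Over the array, the counts higher and lower at 2-fold were 110 and 179 with the pseudocount, 3004 and 2838 with no filter, 24 and 43 with the filter at the 75th percentile, 79 and 126 above the median on both arrays, and 106 and 129 without _s_at and _x_at. With designs from G. hirsutum alone 177 were lower. At 1.5-fold they were 878 and 1086, and at 3-fold 31 and 51. Low signal limits KCS10 and KCS12, and the lack of replicate arrays limits every difference. The ratios of 3-prime to 5-prime signal also differed between the arrays, and their part in the differences was not tested.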
